A study of Mus musculus with 183 samples.

Results

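Replication-dependent linker histone H1 mRNAs were followed through an RNA half-life experiment in mouse embryonic stem cells (mESCs). The members were taken by name, Hist1h1a, Hist1h1b, Hist1h1c, Hist1h1d and Hist1h1e, and make up 5 of the 53380 genes in the count table. All 5 passed the filter on low counts in every comparison. The experiment comprised 47 libraries of 2 cell lines, clone 5F and clone 7E, in 16 groups of 3 libraries, except that clone 5F at day 0 and 120 min had 2. The question was how mRNA levels and decay changed when the cytoplasmic exosome helicase SKIV2L was lost, with and without AVEN.

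Clone 5F carried Rosa26Cre-ERT2/- Skiv2lfl/fl. Clone 7E is labelled Rosa26Cre-ERT2/BirA-V6 (the study's methods write BirA-V5), with both copies of Skiv2l tagged (Skiv2l3xFLAG-Avi/3xFLAG-Avi) and Aven-/-, and these labels leave out the floxed Skiv2l allele that the study's methods describe for this line. In both, a CreERT2 fusion expressed from the Rosa26 locus recombines loxP sites around the catalytic exons of Skiv2l when 4-hydroxytamoxifen (4OHT) is given. Day 0 cells had no 4OHT and day 4 cells 0.1 µM for 4 days. Cells then received actinomycin D, which blocks transcription, for 120, 240 or 360 min, or DMSO for 6 h (mock, 0 min). The labels give actinomycin D as 5 µg/µl and the study's methods give another dose. All cells grew on gelatin in serum and LIF. Each genotype is 1 clone, so genotype and clone cannot be told apart. The study calls the replicates technical, so p-values measure only the spread between these libraries. The protein binding and RPKM values further below come from other lines. In those the study tagged SKIV2L, XRN1, MTR4 or AVEN in a Rosa26Cre-ERT2/BirA-V5 background, with no Aven-/- or floxed Skiv2l genotype.

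Linker histones sit where DNA enters and leaves the nucleosome and compact the chromatin fibre. The mRNAs of their replication-dependent genes are made in S phase and end in a conserved stem-loop in place of a poly(A) tail. The stem-loop is bound by SLBP, and the mRNAs are degraded quickly when DNA synthesis stops, by exonucleases from both ends. SKIV2L feeds mRNAs to the cytoplasmic exosome for 3′–5′ decay, XRN1 degrades them from the 5′ end, MTR4 is the helicase of the nuclear exosome, and AVEN is a partner of the SKIV2L complex. Ribosomal RNA depletion rather than poly(A) selection was used, so mRNAs without a tail were counted.

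The 5 genes lie on chromosome 13 (GRCm38), each with 1 exon: Hist1h1a (ENSMUSG00000049539) at chr13:23763666-23764406, Hist1h1b (ENSMUSG00000058773) at chr13:21779883-21780625, Hist1h1c (ENSMUSG00000036181) at chr13:23738808-23740367, Hist1h1d (ENSMUSG00000052565) at chr13:23553262-23560686 and Hist1h1e (ENSMUSG00000051627) at chr13:23620629-23622558. Coding lengths were close, from 639 to 672 nt, whereas annotated gene models ran from 741 nt for Hist1h1a to 7425 nt for Hist1h1d. The stem-loop after each stop codon is shown because it is the feature the 5 mRNAs share with the other replication-dependent histones. Sequences are from the genome, 5′ to 3′ on the mRNA strand, and capitals mark the stem-loop.
Hist1h1a: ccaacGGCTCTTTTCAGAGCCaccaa
Hist1h1b: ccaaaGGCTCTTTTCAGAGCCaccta
Hist1h1c: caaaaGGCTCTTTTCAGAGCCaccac
Hist1h1d: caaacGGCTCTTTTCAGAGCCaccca
Hist1h1e: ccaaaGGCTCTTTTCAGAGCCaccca
Hist1h1t: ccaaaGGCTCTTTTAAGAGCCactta

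The 16 letters were identical in the 5 members and began 25 nt (Hist1h1c), 31 nt (Hist1h1b), 32 nt (Hist1h1d), 34 nt (Hist1h1a) and 41 nt (Hist1h1e) after the stop codon. The 26 nt printed lie at chr13:23764387-23764412 on the plus strand for Hist1h1a, chr13:21779832-21779857 on the minus strand for Hist1h1b, chr13:23739507-23739532 on the plus strand for Hist1h1c, chr13:23555782-23555807 on the plus strand for Hist1h1d and chr13:23621777-23621802 on the minus strand for Hist1h1e. Hist1h1t (chr13:23696520-23696545, plus strand) is the testis linker histone and is shown for its single different base in the loop. The letters GGCTCTTTTNAGAGCC on the mRNA strand, where N is any base and the other letters were fixed, within 100 nt after the stop codon, were present in 52 of 21752 protein-coding genes (0.239%), of which 51 had a histone cluster symbol. The window held no match for H1f0 or H1fx, the replacement linker histones.

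Sequence similarity and overlap limit some members. All 50-nt windows of the coding parts of Hist1h1a and Hist1h1b occurred once in the genome, against 78.1% for Hist1h1c, 73.6% for Hist1h1d and 74.6% for Hist1h1e, and only uniquely mapped reads were counted. Hist1h1e shares 496 of its 1930 exonic nt with Hist1h2be, all beyond its stop codon, so reads there cannot be assigned to one of them. The span of Gm11398, a transcribed pseudogene on the same strand, also overlaps Hist1h1e, and the nt shared with it were not counted. The gene models of Hist1h1c, Hist1h1d and Hist1h1e run on past the stem-loop. Their counts can therefore include reads from RNA that extends beyond it. In Hist1h1b, 0 of the 16 stem-loop bases lie inside the model.

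Libraries held between 24440935 and 34114250 counts. All 8 mESC markers fixed for the check had a mean of at least 100 normalized counts in the mock libraries of each clone and day. The summed primitive endoderm markers ranged from 2021 to 2424 in mock libraries of clone 5F and from 193 to 240 in those of clone 7E. The summed fibroblast or feeder markers ranged from 14982 to 16989 in mock clone 5F at day 0 and from 21638 to 23964 at day 4, against 15790 to 17869 and 16571 to 20154 in clone 7E. Few of the 5 markers carry these sums. A mean of at least 100 normalized counts was reached by 2 and 3 of them in clone 5F and by 1 and 2 in clone 7E, at day 0 and day 4. The summed neural markers ranged from 1131 to 1178 in mock clone 5F and from 2184 to 2311 in mock clone 7E at day 0, and from 917 to 1013 and 1740 to 1856 at day 4. In mock, the sums of primed epiblast markers lay between 1473 and 2278 and those of trophoblast markers between 94.1 and 188. No mock group had a marker list at 0, and the part of these markers in the results was not tested. Markers were not examined in the actinomycin D libraries. Aven fell between 998 and 1012 normalized counts in clone 5F and between 56.6 and 86.0 in clone 7E at day 0. Skiv2l did not follow the label in clone 5F, at 4136, 4150 and 4205 normalized counts at day 0 and 3825, 4162 and 4415 at day 4 (log2 difference -0.01 ± 0.05 SE, adjusted p = 0.914 by edgeR's quasi-likelihood test). In clone 7E it was lower at day 4, between 368 and 406 against 903 to 1038 (-1.32 ± 0.07). Reads from the Skiv2l exons outside the loxP sites still count, so this check is weak. For clone 5F, day 4 below therefore stands for the libraries labelled day 4, and no result of theirs rests on a measured loss of Skiv2l.

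Before actinomycin D, all 5 linker histone mRNAs were higher in the clone 5F libraries labelled day 4 than at day 0, by 1.43-fold for Hist1h1e to 2.18-fold for Hist1h1a and Hist1h1d. Values are counts divided by size factors, with the spike-in factor of the time point, which is 1 for mock. Hist1h1a had 17974, 19052 and 18887 normalized counts at day 0 and 42195, 38021 and 41598 at day 4. Hist1h1d had 12092, 12929 and 12449 at day 0 and 28233, 25538 and 28104 at day 4. These 2 members had the largest differences, and their day 0 and day 4 libraries did not overlap. Hist1h1c gave 6861, 7702 and 7120 at day 0 and 13357, 11685 and 14873 at day 4. Hist1h1b gave 11023, 11456 and 10935 at day 0 and 19479, 17943 and 19973 at day 4. Hist1h1e gave 5154, 5504 and 5431 at day 0 and 7500, 7054 and 8379 at day 4. The groups did not overlap for any member, and Hist1h1e moved least. The share of all genes without such overlap was not counted. The fibroblast or feeder marker sum was also higher in these day 4 libraries (21638 to 23964 against 14982 to 16989). Only 2 of its 5 markers at day 0 and 3 at day 4 had a mean of at least 100 normalized counts.

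At an adjusted p under 0.05 in edgeR's quasi-likelihood test (Benjamini-Hochberg, over all genes), 5 of 5 members were called higher, whereas 12.8% of the 16349 genes tested were called higher and 11.6% lower. The log2 differences were 1.12 ± 0.05 (SE) for Hist1h1a, 1.13 ± 0.05 for Hist1h1d, 0.88 ± 0.06 for Hist1h1c, 0.78 ± 0.05 for Hist1h1b and 0.51 ± 0.05 for Hist1h1e, with adjusted p from 4.44e-13 to 5.99e-07. The median over all genes was -0.00499. Core replication-dependent histones moved the same way, with 49 of 53 tested members called higher, 0 lower and a median of 0.67.

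**Figure D1:**
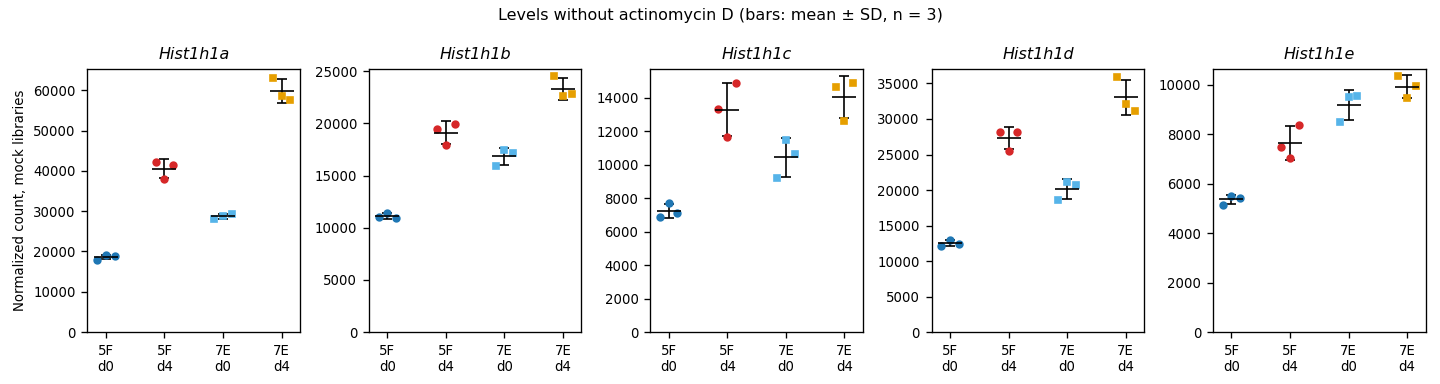
Normalized counts of the 5 linker histone mRNAs in each mock library (points, linear scale from 0, 1 panel per gene) by clone and day of 4OHT, with the mean and SD of each group (n = 3). In clone 5F every library labelled day 4 lies above every day 0 library, and in clone 7E this holds for 4 members and not for Hist1h1e, whose highest day 0 library (9548) exceeds its lowest day 4 library (9450). How many of all genes show such a separation was not counted.

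In clone 7E the same comparison gave higher levels for 4 of 5 members (20.7% of 16333 genes were called higher and 19.4% lower). Hist1h1a had 28012, 28718 and 29354 normalized counts at day 0 and 63123, 58734 and 57722 at day 4, a log2 difference of 1.06 ± 0.05. Hist1h1d had 18554, 21160 and 20654 at day 0 and 35879, 32095 and 31189 at day 4 (0.72 ± 0.06). Both again led the family. Hist1h1b had 15934, 17431 and 17135 at day 0 and 24555, 22651 and 22788 at day 4 (0.47 ± 0.05). Hist1h1c had 9195, 11481 and 10668 at day 0 and 14650, 12609 and 14915 at day 4 (0.43 ± 0.07). Hist1h1e had 8476, 9487 and 9548 at day 0 and 10370, 9450 and 9943 at day 4, and its difference of 0.11 ± 0.05 did not pass the test (adjusted p = 0.0811), but passed without replicate 2 (0.17, adjusted p = 0.0185) or replicate 3 (0.14, adjusted p = 0.0413), and was 0.027 without replicate 1 (adjusted p = 0.824).

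This direction depends on the scaling. ERCC spike-ins, RNAs added to the lysis buffer in fixed amount, took 0.310% to 0.320% of counts in the mock libraries of clone 7E at day 0 and 0.640% to 0.659% at day 4. Scaled to each library's own ERCC counts, 0 of 5 members were higher and 4 were lower, with log2 differences of -0.04 (Hist1h1a), -0.38 (Hist1h1d), -0.63 (Hist1h1b), -0.67 (Hist1h1c) and -0.99 (Hist1h1e), while the median of all genes lay at -1.11. Each member lay above that median on either scale, but a change of scaling shifts all genes by nearly the same amount. Its place against the median could therefore hardly change, and does not decide the direction. In these bulk samples, fewer cells per well and less RNA per cell cannot be told apart.

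The response to 4OHT was smaller in clone 7E for 4 members (5.29% of 17209 genes were called lower and 6.65% higher in the test of this difference, which was added after seeing the data). The change in clone 7E minus that in clone 5F was -0.31 ± 0.07 for Hist1h1b, -0.45 ± 0.11 for Hist1h1c, -0.41 ± 0.08 for Hist1h1d and -0.40 ± 0.08 for Hist1h1e on the log2 scale, with adjusted p from 0.000818 to 0.00798. For Hist1h1a it was -0.06 ± 0.06 (adjusted p = 0.609), with a 95% interval from -0.19 to 0.06, and -1.09 (adjusted p = 6.54e-13) by each library's own ERCC counts, a scale on which the median of all genes lay at -1.03.

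Without 4OHT, the Aven-/- clone 7E had more of every member than clone 5F, 1.45-fold for Hist1h1c to 1.71-fold for Hist1h1e, and 5 of 5 were called (20.0% of 16299 genes were called higher and 19.7% lower). The log2 differences were 0.77 ± 0.05 for Hist1h1e, 0.69 ± 0.05 for Hist1h1d, 0.62 ± 0.04 for Hist1h1a, 0.60 ± 0.04 for Hist1h1b and 0.53 ± 0.06 for Hist1h1c. Libraries of the clones did not overlap for any member, and how many of all genes share this was not counted. This comparison uses the same day 0 libraries as the 4OHT comparisons. Skiv2l itself was lower in clone 7E at day 0 (-2.10 ± 0.05), and the line also carries the tag. The part of Skiv2l, the tag or the primitive endoderm and neural markers in these differences was not tested.

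In clone 5F at day 0, the linker histone mRNAs were nearly gone after 120 min of actinomycin D. Normalized counts fell to 139 and 108 for Hist1h1a, 45.4 and 53.1 for Hist1h1b, 103 and 127 for Hist1h1c, 63.9 and 62.6 for Hist1h1d and 69.2 and 55.3 for Hist1h1e. These values rest on 61 to 187 counts per library. The share of the mock mean that was left was 0.662% ± 0.119 (SD, n = 2) for Hist1h1a, 0.442% ± 0.0494 for Hist1h1b, 1.60% ± 0.235 for Hist1h1c, 0.507% ± 0.00766 for Hist1h1d and 1.16% ± 0.182 for Hist1h1e. Over 10910 genes with at least 100 normalized counts in mock the median share was 59.4%, and 14 to 51 of these genes had less left than a given member. Of the 61 core histones, 48 had enough mock counts, with a median share of 0.725%.

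In the clone 5F libraries labelled day 4, between 18.4% and 42.4% was left at the same time. Hist1h1a had 18762, 15683 and 17166 normalized counts (42.4% ± 3.79, n = 3), Hist1h1c had 4260, 3427 and 4356 (30.2% ± 3.84) and Hist1h1d had 9194, 7245 and 8138 (30.0% ± 3.57). For these members the lowest library still held 25.8% of the mock mean. Hist1h1e had 1727, 1714 and 1870 (23.2% ± 1.13), and Hist1h1b had 3496, 3279 and 3782 (18.4% ± 1.32). The median of all genes was 58.1%, and that of 49 core histones 10.7%.

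The change in this share, tested as the difference of the log2 ratios of 120 min to mock, exceeded the difference in mock level for each member. All 5 members were called higher (0.318% of 17901 genes were, and 0.0391% lower): 6.00 ± 0.18 for Hist1h1a, 5.89 ± 0.15 for Hist1h1d, 5.38 ± 0.12 for Hist1h1b, 4.32 ± 0.15 for Hist1h1e and 4.24 ± 0.18 for Hist1h1c. In linear terms the share was 64.0-fold higher for Hist1h1a and 18.9-fold higher for Hist1h1c, with adjusted p from 3.43e-18 to 2.33e-13. Core histones had 41 of 53 called higher, 0 lower and a median of 3.39.

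**Figure D2:**
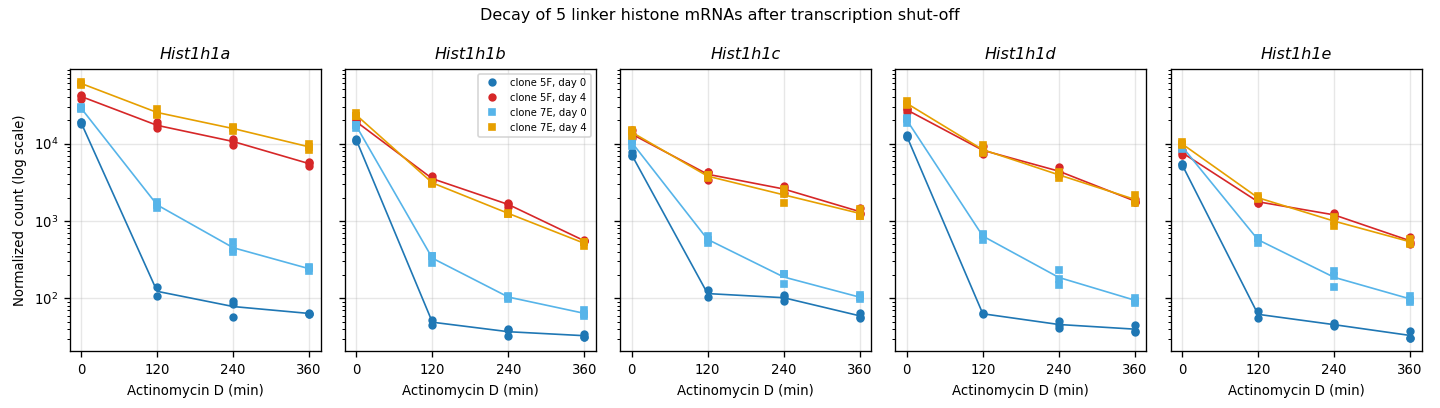
Normalized counts of each member (log scale, points are libraries, lines join group means) against minutes of actinomycin D. The clone 5F day 0 line drops most by 120 min, to 0.442% to 1.60% of mock, clone 7E day 0 lies above it, and both day 4 lines stay within 13.3% to 42.4% at 120 min.

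Clone 7E at day 0 kept more of each member at 120 min than clone 5F. Hist1h1a had 1749, 1627 and 1463 normalized counts (5.62% ± 0.499), Hist1h1e had 594, 604 and 519 (6.24% ± 0.508) and Hist1h1c had 572, 646 and 517 (5.54% ± 0.624). Hist1h1d had 667, 679 and 568 (3.17% ± 0.301), and Hist1h1b had 354, 352 and 285 (1.96% ± 0.234). Every library of clone 7E lay above every library of clone 5F for each member, and the same was not counted for all genes. The median of 49 core histones was 1.55% in that group.

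At day 4, clone 7E had between 13.3% and 42.2% left. Hist1h1a had 27936, 23318 and 24439 normalized counts (42.2% ± 4.02), Hist1h1c had 3915, 3567 and 3905 (27.0% ± 1.41) and Hist1h1d had 9522, 7640 and 7851 (25.2% ± 3.12). Hist1h1e had 2091, 1917 and 1977 (20.1% ± 0.893), and Hist1h1b had 3103, 3017 and 3201 (13.3% ± 0.394). The order of the members at 120 min was the same at day 4 in both clones, from Hist1h1a down to Hist1h1b. The neighbours Hist1h1c and Hist1h1d did not differ beyond their spread in either clone.

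The rise in the share with 4OHT was called for 5 of 5 members in clone 7E (0.821% of 17417 genes were called higher and 0.568% lower): 2.99 ± 0.16 for Hist1h1d, 2.91 ± 0.13 for Hist1h1a, 2.76 ± 0.10 for Hist1h1b, 2.29 ± 0.18 for Hist1h1c and 1.69 ± 0.16 for Hist1h1e. In linear terms this was 3.22-fold for Hist1h1e to 7.95-fold for Hist1h1d. Between the clones at day 0, the share was higher in clone 7E for 5 of 5 members (0.101% of 17766 genes), by 3.09 ± 0.17 for Hist1h1a, 2.64 ± 0.18 for Hist1h1d, 2.43 ± 0.19 for Hist1h1e, 2.15 ± 0.13 for Hist1h1b and 1.79 ± 0.17 for Hist1h1c, in a test added after seeing the data. The rise with 4OHT was smaller in clone 7E for 5 of 5 members (0.0698% of 18623 genes called lower, also added after seeing the data), by -3.09 ± 0.22 for Hist1h1a and -1.95 ± 0.27 for Hist1h1c at the ends of the range. These comparisons share libraries and are given side by side. The last largely restates the day 0 difference between the clones, since Hist1h1a had 42.4% and 42.2% left at day 4 in clones 5F and 7E. It also rests on the low counts of clone 5F at day 0 and 120 min.

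**Figure D3:**
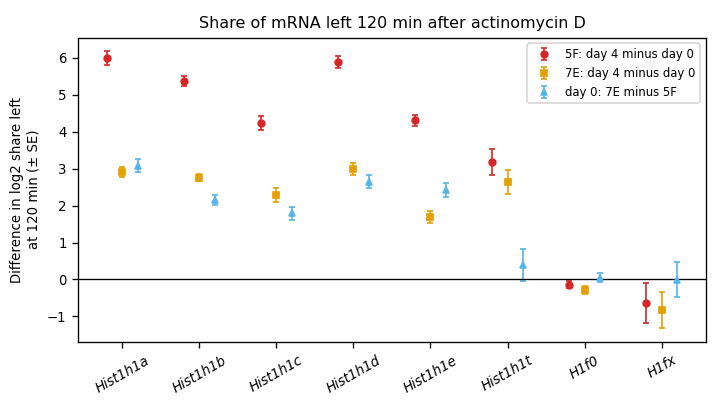
Difference in the log2 share left at 120 min for each member and for Hist1h1t, H1f0 and H1fx, with SE as bars, for day 4 against day 0 in each clone and for clone 7E against clone 5F at day 0. For the members the differences lie between 4.24 and 6.00 in clone 5F, between 1.69 and 2.99 in clone 7E and between 1.79 and 3.09 between the clones, and H1f0 lies near 0 in all 3.

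The fall in normalized counts slowed after 120 min at day 0 in clone 5F. Hist1h1a passed from 0.662% at 120 min to 0.421% ± 0.100 at 240 min and 0.343% ± 0.00242 at 360 min. Hist1h1b, the member with the least left in every group and time, ended at 0.296% ± 0.0174 and Hist1h1c, the member with the most left in that group, at 0.824% ± 0.0749. Expressed as half-lives, the step from mock to 120 min corresponded to 15.4 to 20.1 min for the 5 members and the stretch from 120 to 360 min to 4.06 h (Hist1h1c) to 7.35 h (Hist1h1b). These courses were not straight on a log scale. In the libraries labelled day 4 the corresponding values were 49.1 to 96.7 min and 1.50 to 2.5 h.

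At 360 min the groups were still apart. Hist1h1a had 13.5% ± 0.949 left in the clone 5F libraries labelled day 4 and 15.1% ± 1.26 in clone 7E at day 4, against 0.842% ± 0.0412 in clone 7E at day 0. Hist1h1b had 2.90% ± 0.0441, 2.20% ± 0.170 and 0.380% ± 0.0336 in the same order. In clone 7E the remaining members had 5.43% (Hist1h1e) to 8.92% (Hist1h1c) left at day 4 and 0.470% (Hist1h1d) to 1.07% (Hist1h1e) at day 0.

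Half-lives from a line through ln(normalized count + 1) over all time points, without a test, were 0.752 h (Hist1h1b) to 0.921 h (Hist1h1c) in clone 5F at day 0 and 1.22 h (Hist1h1b) to 2.14 h (Hist1h1a) in the libraries labelled day 4. In clone 7E they were 0.778 h (Hist1h1b) to 0.943 h (Hist1h1e) at day 0 and 1.12 h (Hist1h1b) to 2.26 h (Hist1h1a) at day 4. The median gene had 4.62 to 4.65 h in the 4 sets. This closeness follows from the scaling, since size factors and a common spike-in factor were set per time point across all sets. A difference in bulk decay between the sets would therefore not show in this median, nor in the median shares left given above. Leaving out 1 replicate number moved Hist1h1a between 2.07 and 2.23 h in clone 5F and between 2.19 and 2.37 h in clone 7E at day 4. Without mock libraries the median of the members became 4.50 h in clone 5F and 1.58 h in clone 7E at day 0, and 2.39 and 2.12 h at day 4, and dividing by the spike-in factor gave 4.77 h in clone 5F and 3.50 h in clone 7E at day 4.

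Tested as a change in slope over all times, fewer members passed. In clone 5F, 3 of 5 were called shallower in the libraries labelled day 4 (0.134% of 17901 genes, and 0.0614% steeper), with log2 differences per hour of 0.97 ± 0.17 for Hist1h1a (adjusted p = 0.0106), 0.85 ± 0.18 for Hist1h1d and 0.66 ± 0.14 for Hist1h1c (both 0.045). Hist1h1b (0.70 ± 0.19, adjusted p = 0.242) and Hist1h1e (0.70 ± 0.15, adjusted p = 0.0699) did not pass. With replicate 1, 2 or 3 left out, 0 of 5 passed, with each library's own ERCC counts 1 passed, and without the mock libraries 0 passed and 2 were called steeper (Hist1h1b -0.53, Hist1h1d -0.38). In clone 7E, 4 of 5 were called (0.408% of 17417 genes, and 0.488% steeper): 0.71 ± 0.10 for Hist1h1a, 0.64 ± 0.12 for Hist1h1d, 0.55 ± 0.10 for Hist1h1c and 0.41 ± 0.10 for Hist1h1e (adjusted p = 0.0498), whereas Hist1h1b gave 0.48 ± 0.15 (adjusted p = 0.156). With any 1 replicate left out 1 member was called, and without the mock libraries 2 were.

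Slopes of the clones at day 0 differed for 0 of 5 members in edgeR's quasi-likelihood test (0.0281% of 17766 genes were called higher and 0.00563% lower), and 0 had an unadjusted p under 0.05 there or in DESeq2. The differences ran from 0.07 for Hist1h1c, with a 95% interval from -0.25 to 0.39, to 0.28 for Hist1h1a, from -0.09 to 0.65. The test of whether the slope changed by another amount in clone 7E also called 0 of 5 members (0.0% of 18623 genes), again with 0 at an unadjusted p under 0.05 in edgeR and DESeq2. Its differences ran from -0.28 (Hist1h1e) to -0.10 (Hist1h1c). With mock libraries left out, the sign of the day 0 clone difference turned and all 5 members were called lower in clone 7E, from -0.54 to -0.38. The difference of the changes turned to between 0.36 and 0.55, with 3 members called. Both use the residual counts of clone 5F at day 0, so no difference in late decay is read from them.

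Make-up within the family was compared per coding kilobase, since reads come from genes of different model length. At day 0 in mock, Hist1h1a gave 34.6% ± 0.429 of the summed level in clone 5F and 34.4% ± 1.23 in clone 7E, followed by Hist1h1d (22.4% and 23.2%), Hist1h1b (19.8% and 19.2%), Hist1h1c (13.5% and 12.5%) and Hist1h1e (9.70% and 10.7%). No neighbours in this order overlapped in their SD. At day 4 in mock, Hist1h1a took 38.3% ± 0.700 in clone 5F and 43.5% ± 0.577 in clone 7E. After 360 min it took 57.0% ± 1.41 and 68.8% ± 1.24, while Hist1h1b had dropped to 5.50% ± 0.224 and 3.75% ± 0.499. The day 0 pool of clone 5F went the other way for Hist1h1a, to 28.3% ± 0.711 at 360 min, with Hist1h1c at 26.4% ± 1.59. There Hist1h1a rests on 142 to 154 counts per library. In clone 7E at day 0 its share rose, to 43.8% ± 1.47 at 120 min and 40.7% ± 1.99 at 360 min. Per kilobase of annotated transcript, Hist1h1d came last in mock because its model is 7425 nt long, so the order rests on the length chosen.

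Together the 5 mRNAs made up 1944 ± 67.9 CPM, the summed count relative to the library total, in mock clone 5F at day 0 and 3734 ± 239 at day 4, and 2956 ± 157 and 4730 ± 268 in clone 7E. After 120 min the sums were 22.6 ± 0.768, 1936 ± 191, 199 ± 20.7 and 2387 ± 241 in the same order.

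**Figure D4:**
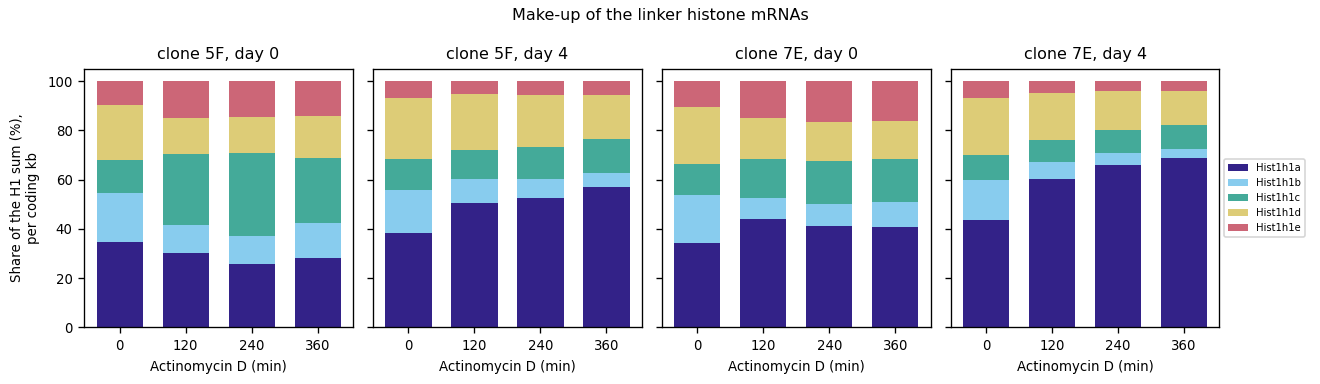
Share of each member in the summed normalized level per coding kilobase (%, stacked bars from 0 to 100) by time of actinomycin D, for each clone and day. Hist1h1a grows from 38.3% to 57.0% at day 4 in clone 5F and from 43.5% to 68.8% in clone 7E.

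CRAC sequences the RNA fragments that UV light crosslinks to a tagged protein, and the authors' values are ratios from pooled libraries, without replicate error or depth. For each of 7240 mRNAs the ratios of MTR4, SKIV2L and XRN1 sum to 1, and AVEN is given over the same sum. The authors' SKIV2L ratio was 0.696 for Hist1h1d, 0.671 for Hist1h1a, 0.631 for Hist1h1b, 0.626 for Hist1h1c and 0.493 for Hist1h1e, against a median of 0.267. Only 84 mRNAs had a higher value than Hist1h1d, and 914 than Hist1h1e. The other 4 members lay between the 96.9 and 98.8 percentiles of the table, and Hist1h1e at 87.4.

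XRN1 ratios were low in turn, at 0.0801 for Hist1h1b, 0.112 for Hist1h1a, 0.115 for Hist1h1c and 0.123 for Hist1h1d, and 0.257 for Hist1h1e, against a median of 0.337. MTR4 ratios ran from 0.181 (Hist1h1d) to 0.288 (Hist1h1b), all under the median of 0.319. Since the ratios sum to 1, these are not separate observations. AVEN values were above their median of 0.295 for all 5, from 0.410 (Hist1h1e) to 0.628 (Hist1h1d). Among 45 of 61 core histones in the table, the median was 0.531 for SKIV2L and 0.187 for XRN1. The replacement linker histones lay under the median for SKIV2L, at 0.125 for H1f0 and 0.172 for H1fx, and above it for MTR4, at 0.604 and 0.520. Their XRN1 ratios of 0.270 and 0.308 and their AVEN values of 0.116 and 0.255 were under the median. The authors' median RPKM was 1469 for Hist1h1a, 773 for Hist1h1b, 395 for Hist1h1c, 118 for Hist1h1e and 58.8 for Hist1h1d, whose model is the longest. Hist1h1e, with the lowest SKIV2L ratio, is also the member whose exon overlaps Hist1h2be, and the part of that overlap was not tested.

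**Figure D5:**
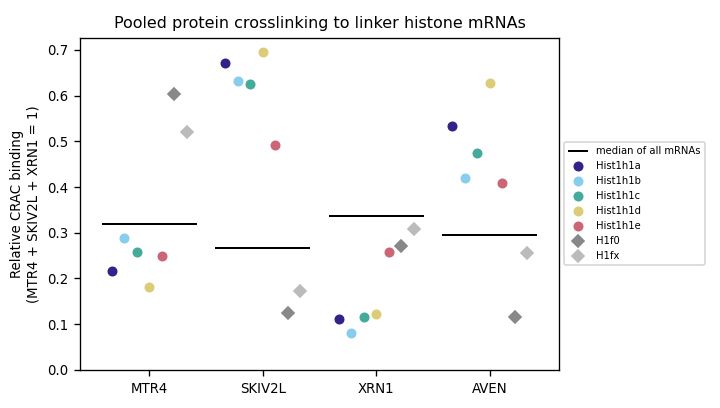
The authors' pooled relative CRAC binding (ratio, with MTR4, SKIV2L and XRN1 summing to 1 per mRNA) of each linker histone mRNA to the 4 proteins, with the median of 7240 mRNAs. The 5 members lie above the median for SKIV2L and AVEN and under it for XRN1 and MTR4. H1f0 and H1fx lie on the other side for SKIV2L, MTR4 and AVEN.

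The linker histones outside the list are given for comparison. H1f0, made throughout the cell cycle from a polyadenylated mRNA, kept 81.7% ± 1.54 at 120 min in clone 5F at day 0 and 73.9% ± 1.26 at day 4. Its mock level fell by 0.23 ± 0.06 on the log2 scale in clone 5F and by 0.69 ± 0.07 in clone 7E, and its slope became steeper in clone 7E (-0.14 ± 0.03 per hour, adjusted p = 0.00629). H1fx, another replacement form, had 93.6 to 146 normalized counts at day 0 and 136 to 211 at day 4 in mock clone 5F. Its log2 difference was 0.49 ± 0.17 there (adjusted p = 0.0349 by edgeR's quasi-likelihood test) and -0.15 ± 0.18 in clone 7E (adjusted p = 0.545). Shares of H1fx left at 120 min spread from 35.7% to 106% in clone 5F. Hist1h1t, with a stem-loop, had 104, 116 and 131 normalized counts in ascending order at day 0 in mock clone 5F and 227 to 244 at day 4 (1.02 ± 0.11). In clone 7E it had 118 to 146 at day 0 and 121 to 152 at day 4 (0.04 ± 0.14, adjusted p = 0.831). Its share left at 120 min rose by 3.19 ± 0.35 in clone 5F and 2.63 ± 0.33 in clone 7E, but the day 0 values at 120 min rest on 7 and 3 counts in clone 5F and 9, 8 and 8 in clone 7E. H1foo, H1fnt and Hils1, the oocyte and spermatid forms, never exceeded 2.03 normalized counts.

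Factors that process or degrade histone mRNAs were described from a list of 32, of which 30 were tested. In mock, 4 rose and 9 fell in clone 5F (median -0.04), where 12.8% of all genes were called higher and 11.6% lower. In clone 7E, 4 rose and 8 fell (median -0.10), where 20.7% of all genes were called higher and 19.4% lower. The genes given below were chosen from this list by role, after their values were seen. Slbp, the stem-loop binding protein, fell by 0.21 ± 0.05 in clone 5F and by 0.17 ± 0.05 in clone 7E. Upf1, a helicase used in histone mRNA decay, rose by 0.36 ± 0.05 and 0.35 ± 0.05. Ttc37 and Wdr61, the partners of SKIV2L in its complex, fell by 0.18 ± 0.05 and 0.38 ± 0.05 in clone 5F and by 0.27 ± 0.05 and 0.20 ± 0.05 in clone 7E. Eri1, an exonuclease that trims the stem-loop end, fell by 0.18 ± 0.05 in clone 5F and gave -0.06 ± 0.05 in clone 7E. For the share left at 120 min, 0 of 30 were called in either clone. Of all genes, 0.318% were called higher and 0.0391% lower in clone 5F, and 0.821% and 0.568% in clone 7E. With shares this low, 0 of 30 says little about these factors.

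Of 21 S-phase genes, 0 rose and 10 fell in mock clone 5F (median -0.07), where 11.6% of all genes were called lower. In clone 7E, 1 rose and 10 fell (median -0.14), where 19.4% of all genes were called lower. Of 15 genes of G2 and M phase, 3 rose and 4 fell in clone 5F (median 0.0044), and 1 rose and 3 fell in clone 7E (median 0.06). For the share left at 120 min, 0 of either list was called in either clone, which says little where under 1% of all genes were called in each direction (0.318% and 0.0391% in clone 5F, 0.821% and 0.568% in clone 7E). The part of cell cycle position in the levels of the H1 mRNAs was not tested.

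The genes with courses most like the family were chosen by Pearson's r with the mean standardized log2 value of the members over the 47 libraries, among 9869 genes. They were Hist1h2bb (0.995), Hist1h3a (0.994), Hist1h3d (0.993), Hist1h2ak (0.992) and Hist4h4 (0.990), which encode core histones. Of the 50 nearest genes, 37 were core histones, of 46 compared. Between members r ran from 0.948 for Hist1h1a with Hist1h1b to 0.995 for Hist1h1c with Hist1h1d. The libraries share the time course, so these values describe likeness and carry no test.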

How the data were processed

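The authors mapped 50-nt single-end reads of ribosomal RNA-depleted libraries with STAR to GRCm38 with ERCC sequences added and deposited raw counts of uniquely mapped reads per gene. DESeq2 size factors, computed per time point, divided the counts, and the result was then scaled by a common spike-in factor of the time point (0.649, 0.531 and 0.438 at 120, 240 and 360 min, from ERCCs with a mean above 50 counts); the study's methods word this scaling as a division. Differences were tested with edgeR 4.0.16 (quasi-likelihood test, filterByExpr, Benjamini-Hochberg over all genes, threshold 0.05) in R 4.3.3, with DESeq2 1.42.0 as an alternative. SE is the log2 difference over the square root of F, and 95% intervals assume a normal error. Half-lives used a pseudocount of 1. The authors deposited CRAC values as ratios of pooled counts and expression as RPKM, both given without a test. The authors' own half-lives and fold changes were not used. Columns without a sample numbered 0.

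Gene models and symbols are from Gencode M21 (53274 of 53380 genes matched). The rule for named genes took the members, Skiv2l, Aven, the other linker histones and the 5 genes with the most similar course. Slbp, Upf1, Ttc37, Wdr61 and Eri1 fall outside it and were chosen after their values were seen. The members and lists were chosen with earlier results of these data known. Count tests were tested on simulated data. Chi-square per gene between replicate libraries was at least 2.59 in 46 pairs, so none was a copy. Replicate numbers of clones 5F and 7E at day 0 deviated together (r from 0.13 to 0.84 over times and pairs). The values given for the clones at day 0 nevertheless come from fits without a replicate block, which was run only as an alternative. For the mock level at day 0, 39.7% of all genes were called without the block and 49.7% with it. Counting error limits the lowest values. Alternatives were other scaling, filters, tools, a replicate block, and leaving out replicates or time points.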

Additional observations from a re-analysis of the deposited data

Results flagged for a closer look

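The change with 4OHT of the share left at 120 min differed between the clones for all 5 members in edgeR's quasi-likelihood test of the difference, which was added after seeing the data. On the log2 scale, clone 7E minus clone 5F was -3.09 for Hist1h1a, -2.62 for Hist1h1b, -1.95 for Hist1h1c, -2.90 for Hist1h1d and -2.63 for Hist1h1e (adjusted p from 1.74e-14 to 2.96e-05). For Hist1h1a the share left was 0.662% and 5.62% at day 0 and 42.4% and 42.2% at day 4 in clones 5F and 7E.

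The change with 4OHT of the mock level also differed between the clones, in a test likewise added after seeing the data. Clone 7E minus clone 5F was -0.31 for Hist1h1b, -0.45 for Hist1h1c, -0.41 for Hist1h1d and -0.40 for Hist1h1e on the log2 scale (adjusted p from 0.000818 to 0.00798), where 5.29% of all genes were called lower. Hist1h1a did not pass (-0.06, adjusted p = 0.609). Groups of 3 libraries were not examined for single outlying libraries.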

How the results depend on the processing

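The mock difference in clone 5F, that between the clones at day 0, and the rise in the share left at 120 min in both clones kept 5 of 5 calls under all alternatives run (own ERCC counts, TMM, DESeq2, no filter on low counts, replicate block, each replicate left out). With own ERCC counts the median of all genes moved to -0.17 between the clones at day 0, -0.19 and 0.19 for the share left in clones 5F and 7E, and -1.11 for the mock level in clone 7E, where calls of higher level went from 4 to 0 and log2 differences to -0.038 for Hist1h1a, -0.63 for Hist1h1b, -0.67 for Hist1h1c, -0.38 for Hist1h1d and -0.99 for Hist1h1e.

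Of 3 calls in clone 5F, 1 remained in number with own ERCC counts and 1 with a replicate block, between 0 and 0 with a replicate left out, 0 without mock libraries and 5 without the 360 min libraries. Without mock the slope differences were -0.18 for Hist1h1a, -0.53 for Hist1h1b, -0.15 for Hist1h1c, -0.38 for Hist1h1d and -0.19 for Hist1h1e, 2 of them called the other way. Of 4 calls in clone 7E, the number was between 1 and 1 with a replicate left out and 2 without mock, where Hist1h1b turned to -0.042. Between the clones at day 0, calls of a higher slope stayed at 0 without mock, with 5 called the other way (-0.46 for Hist1h1a, -0.46 for Hist1h1b, -0.38 for Hist1h1c, -0.54 for Hist1h1d, -0.41 for Hist1h1e), and the share left at 120 min in place of the slope gave 5. The difference of the changes went to 0.50, 0.48, 0.38, 0.55 and 0.36 in the same order without mock (0 called lower, 3 the other way) and to 5 calls with the share left in its place. Mock libraries hold the only values before the first 120 min, so leaving them out removes the early step. In clone 5F at day 0 only residual counts then remain, and their slope largely carries the spike-in factor.

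Median half-lives of the members were 0.765 h (clone 5F day 0), 1.68 h (5F day 4), 0.889 h (7E day 0) and 1.49 h (7E day 4). They became 4.50, 2.39, 1.58 and 2.12 h without mock, 0.276, 1.15, 0.479 and 1.00 h from mock and 120 min alone, and 1.09, 4.77, 1.35 and 3.50 h when values were divided by the spike-in factor.

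Between day 0 and day 4 of a clone, same-numbered libraries correlated by -0.45 to -0.08 in mock, 0.48 to 0.58 at 120 min, 0.16 to 0.64 at 240 min and 0.08 to 0.61 at 360 min in clone 5F, and by -0.42 to -0.03, 0.03 to 0.66, -0.11 to 0.68 and -0.32 to 0.55 in clone 7E, so the numbers were not taken as pairs there. The replicate block, paired by the data for the clones at day 0 only, left 5 mock calls and 0 slope calls there and changed no other call except those given for the slope in clone 5F (Hist1h1c, adjusted p = 0.0982, and Hist1h1d, adjusted p = 0.101) and Hist1h1e in clone 7E (adjusted p = 0.0867, leaving 3 calls). Counts of 61 to 187 per library limit the shares left in clone 5F at day 0 and the half-lives there without mock.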
